A study of Mus musculus with 18 samples.

Results

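The genes described here are 9 hypoxia-inducible genes outside glycolysis, namely Bnip3, Bnip3l, Fam162a, Prelid2, Ndrg1, Car12, Bhlhe40, Ankrd37 and Mettl7b. They were found by gene symbol among 14804 genes listed in at least 1 of 3 expression tables, and all 9 were present in each table, which held 13578 genes in the ESC table, 13518 in the TSC table and 11538 in the XEN table. The genes were chosen because they are known to respond to low oxygen and because their levels in these same hypoxic and normoxic libraries were already known, so their hypoxia to normoxia values are given as a description with no test. The study asked how mouse embryonic stem cells (ESCs, a model of the epiblast), trophoblast stem cells (TSCs, of the trophectoderm) and extra-embryonic endoderm (XEN) cells (of the primitive endoderm) respond to short and long hypoxia. Each cell type was kept in normoxia (20% O2) or moved to hypoxia (2% O2), and hypoxic cells were collected on day 2 or day 7. There were 2 biological replicates per condition, which makes 9 groups and 18 libraries of bulk RNA-seq. Each cell type had a single normoxic group, whose label gives no day. Time in culture therefore cannot be told apart from hypoxia in the comparisons with normoxia. The ESCs were of the wild-type line E14 and were grown on gelatin without feeders in serum and LIF. TSCs were grown on feeders with FGF4 and heparin, and XEN cells on gelatin in medium partly conditioned on embryonic fibroblasts. The labels name no line for either of the last 2 cell types. Values are TPM, transcripts per 1000000, as deposited, and a pair of values is always given as replicate 1 and then replicate 2.

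When oxygen is low, the prolyl hydroxylases that mark HIF alpha subunits for destruction lose activity, and HIF then binds short sequences with the core ACGTG or GCGTG near its target genes. Besides glycolytic enzymes, its targets include genes that remove mitochondria, export acid and restrain transcription. Bnip3 and Bnip3l encode related proteins of the outer mitochondrial membrane that bind LC3 family proteins and so recruit the autophagosome, which makes them receptors of mitophagy. Fam162a encodes a mitochondrial protein linked to cell death in hypoxia, and Prelid2 belongs to the PRELI family, of which other members carry lipids between mitochondrial membranes. Ndrg1 encodes a cytoplasmic stress-response protein, Car12 a carbonic anhydrase whose active site faces outwards from the cell, and Bhlhe40 a basic helix-loop-helix repressor that also acts in the circadian clock. Ankrd37 encodes a small ankyrin-repeat protein and Mettl7b a methyltransferase-like protein.

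All 9 are protein-coding. In the GENCODE annotation of GRCm38, Bnip3 at chr7:138890836-138909519, Bnip3l at chr14:66985239-67008877, Fam162a at chr16:36043761-36071594, Ndrg1 at chr15:66929318-66969640, Ankrd37 at chr8:45996902-46005707 and Mettl7b at chr10:128958274-128960988 lie on the minus strand, and Car12 at chr9:66713686-66766845 and Bhlhe40 at chr6:108660629-108666925 on the plus strand. The deposited values are 1 per gene, so no exon or isoform was measured by itself.

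RefSeq promoter windows (GRCm38.p6, 250 bases before to 50 bases after the start of a gene) were at hand for 5 of the genes, Bnip3, Ankrd37, Fam162a, Car12 and Mettl7b. They were searched on both strands for ACGTG and GCGTG, the letters at the core of the HIF site, counting overlapping matches separately. Of 32851 windows in the table, 43.8% held at least 1 match, so a single match is common. Bnip3 held 5 matches in 4 separate stretches, Ankrd37 held 4 in 3 stretches, and Fam162a held 6 in 6 stretches. At least 4 matches occurred in 3.86% of all windows, at least 5 in 1.66% and at least 6 in 0.694%. The windows of Car12 and Mettl7b held no match, which says only that these letters are not in those 300 bases. The stretches below are shown because they hold the clustered matches. They are printed 5′ to 3′ on the strand of the gene, with matches in capitals, and leave out bases that GENCODE assigns to an exon of any gene. The stretch of Bnip3 is chr7:138909520-138909756, that of Ankrd37 is chr8:45999868-46000100 and that of Fam162a is chr16:36071595-36071684, all on the minus strand.
Bnip3: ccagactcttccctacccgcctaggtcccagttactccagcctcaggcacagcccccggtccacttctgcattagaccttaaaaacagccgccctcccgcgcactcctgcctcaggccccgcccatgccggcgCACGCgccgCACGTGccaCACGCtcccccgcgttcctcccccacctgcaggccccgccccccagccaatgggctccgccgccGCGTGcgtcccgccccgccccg
Ankrd37: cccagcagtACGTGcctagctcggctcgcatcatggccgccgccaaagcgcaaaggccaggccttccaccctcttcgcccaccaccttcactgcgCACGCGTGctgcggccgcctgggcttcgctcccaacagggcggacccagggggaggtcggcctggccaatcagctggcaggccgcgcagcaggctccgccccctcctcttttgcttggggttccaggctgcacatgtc
Fam162a: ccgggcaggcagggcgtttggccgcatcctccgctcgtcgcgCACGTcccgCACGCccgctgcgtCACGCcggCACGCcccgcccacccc

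Counted from the RefSeq start on which each window is set, the matches of Bnip3 from -117 to -95 include CACGTG, a palindrome that reads as a match on both strands, and another match begins at -35. Ankrd37 has an overlapping pair from -155 to -148 and a further match that begins at -241. That start of Ankrd37 lies inside the GENCODE span given above, not at its end. The 4 matches of Fam162a in the printed stretch lie between -81 and -46. A match is a description of the letters, and no binding data were analysed here.

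The defining markers were present in each cell type. Pou5f1, the ESC transcription factor, stood between 1568 and 2009 TPM in ESC libraries and at most at 1.48 TPM in XEN libraries, and was not listed in the TSC table. In TSCs, Cdx2 stood between 35.1 and 169 TPM and Elf5 between 14.7 and 85.1 TPM, and in XEN cells Gata4 stood between 159 and 197 TPM and Sox17 between 1009 and 1393 TPM. Some markers were shared, with Klf4 between 623 and 1193 TPM in XEN cells and Sox2 between 129 and 1104 TPM in TSCs. The summed level of 6 TSC markers was lower on day 7 of hypoxia (780 and 726 TPM) than on day 2 (1255 and 1381 TPM) or in normoxia (1171 and 1291 TPM). Tfap2c of this list went the other way between the days, with 383 and 404 TPM on day 2 and 488 and 463 TPM on day 7. Libraries of TSCs also held feeder transcripts in uneven amounts, and the summed level of 8 fibroblast markers, all listed in the TSC table, was 1844 and 260 TPM in normoxia, 196 and 947 TPM on day 2 and 425 and 254 TPM on day 7. In ESCs, where 4 of the 8 were listed, the sum lay between 23.8 and 40.2 TPM, and in XEN cells 1 was listed with at most 0.272 TPM. In a bulk library, fewer cells of a type and less RNA per cell cannot be told apart. Depth lay between 35592641 and 75204029 reads on listed genes.

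**Figure D1:**
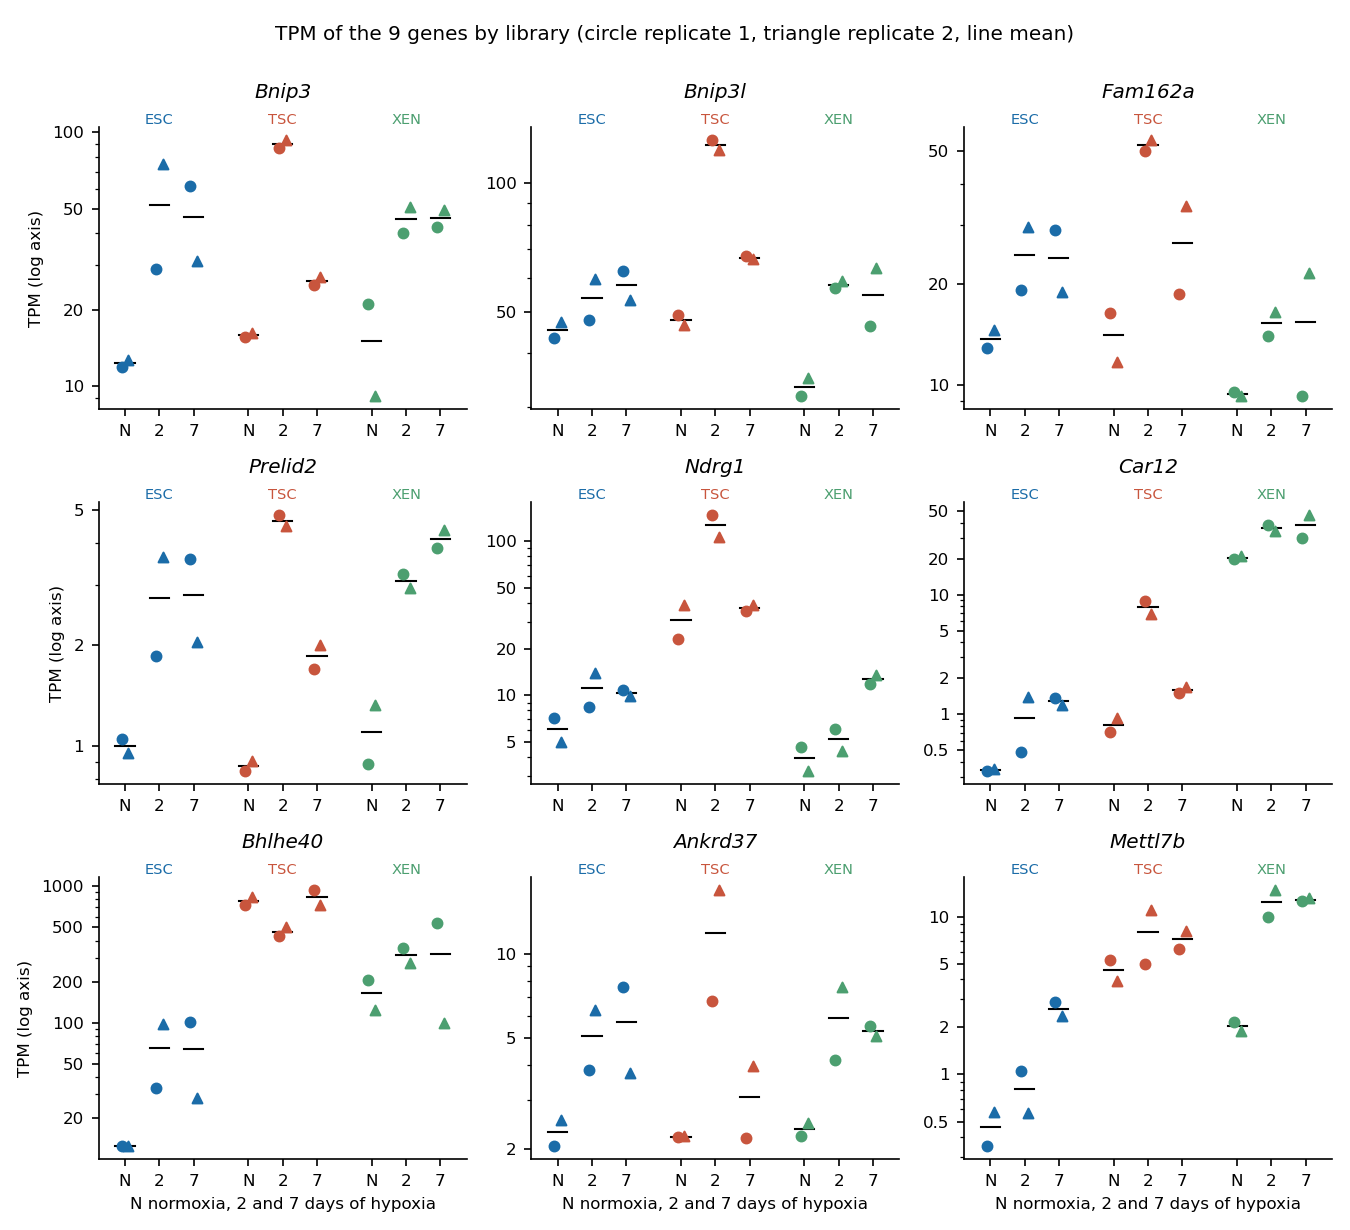
TPM (log axis) of each of the 9 genes in each of the 18 libraries, by cell type and by condition (N normoxia, 2 and 7 days of hypoxia). Circles are replicate 1, triangles replicate 2 and lines the mean of both. The TSC libraries of day 2 stand above normoxia in 7 panels, stand below it for Bhlhe40 and overlap it for Mettl7b.

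Bnip3 was higher in hypoxia in all 3 cell types. In ESCs it stood at 12.0 and 12.7 TPM in normoxia, 29.0 and 74.9 TPM on day 2 and 61.3 and 31.2 TPM on day 7. In TSCs it stood at 15.7 and 16.2 TPM in normoxia, 86.5 and 93.2 TPM on day 2 and 25.0 and 26.8 TPM on day 7. In XEN cells it stood at 21.1 and 9.14 TPM in normoxia, 40.2 and 50.7 TPM on day 2 and 42.4 and 49.3 TPM on day 7. The hypoxic libraries lay above the normoxic ones in every cell type and on both days, without overlap. On day 2 the ratio of mean TPM was 4.22 in ESCs, 3.005 in XEN cells and 5.64 in TSCs, while that of day 7 was 3.76, 3.03 and 1.62.

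Bnip3l, the second mitophagy receptor, started higher and moved less. In ESCs it stood at 43.3 and 47.3 TPM in normoxia, 47.9 and 59.6 TPM on day 2 and 62.1 and 53.3 TPM on day 7. In TSCs the values were 49.2 and 46.7 TPM, then 126 and 119 TPM, then 67.4 and 66.5 TPM. In XEN cells they were 31.7 and 34.9 TPM, then 56.9 and 58.9 TPM, then 46.3 and 63.4 TPM. The hypoxic libraries were again above the normoxic ones in each comparison, but in ESCs by little, with a ratio of mean TPM of 1.19 on day 2 and 1.27 on day 7. On day 2 that ratio reached 2.56 in TSCs, against 1.74 in XEN cells.

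Fam162a and Prelid2, whose products are mitochondrial or of a mitochondrial family, had like Bnip3 a higher mean TPM in hypoxia in each cell type. Fam162a in TSCs stood at 16.4 and 11.8 TPM in normoxia, 50.01 and 53.9 TPM on day 2 and 18.7 and 34.3 TPM on day 7. In ESCs it went from 12.9 and 14.7 TPM to 19.3 and 29.7 TPM on day 2 and 29.1 and 18.9 TPM on day 7. XEN libraries held 9.56 and 9.28 TPM, then 14.1 and 16.6 TPM, then 9.32 and 21.6 TPM. The XEN libraries of day 7 therefore overlap normoxia for Fam162a, while those of day 2 do not. Prelid2 stood at 1.05 and 0.955 TPM in normoxic ESCs, 1.85 and 3.63 TPM on day 2 and 3.58 and 2.04 TPM on day 7. In TSCs it stood at 0.844 and 0.907 TPM, then 4.84 and 4.49 TPM, then 1.70 and 2.00 TPM, and in XEN cells at 0.888 and 1.325 TPM, then 3.25 and 2.94 TPM, then 3.87 and 4.37 TPM. Neither hypoxic group of Prelid2 overlapped normoxia in any cell type. Its largest ratio of mean TPM to normoxia was 5.33, on day 2 in TSCs.

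Car12 started from low levels in ESCs and TSCs and from a high level in XEN cells. In normoxia it stood at 0.334 and 0.350 TPM in ESCs, 0.708 and 0.927 TPM in TSCs and 19.9 and 21.0 TPM in XEN cells, and since each table was scaled on its own, these levels were set side by side without a test. On day 2 it stood at 0.488 and 1.39 TPM in ESCs, 8.90 and 6.88 TPM in TSCs and 38.8 and 34.4 TPM in XEN cells. On day 7 it stood at 1.37 and 1.21 TPM in ESCs, 1.49 and 1.70 TPM in TSCs and 29.7 and 46.5 TPM in XEN cells. No hypoxic library overlapped the normoxic libraries of its cell type. The ratio of mean TPM on day 2 was 9.65 in TSCs, the largest of any member, 2.74 in ESCs and 1.79 in XEN cells. In normoxic ESCs the value rests on 56 and 83 reads.

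Ndrg1 stood at 7.14 and 5.01 TPM in normoxic ESCs, 8.36 and 14.1 TPM on day 2 and 10.9 and 9.996 TPM on day 7. In TSCs it stood at 23.2 and 38.9 TPM, then 148 and 107 TPM, then 35.5 and 38.6 TPM. In XEN cells it stood at 4.62 and 3.22 TPM, then 6.07 and 4.34 TPM, then 11.9 and 13.6 TPM. This stress-response gene was thus high on day 2 alone in TSCs, where day 7 overlapped normoxia, and on day 7 alone in XEN cells, where day 2 overlapped normoxia. Ankrd37 stood at 2.05 and 2.55 TPM in normoxic ESCs, 3.85 and 6.28 TPM on day 2 and 7.61 and 3.75 TPM on day 7. In TSCs it stood at 2.20 and 2.23 TPM, then 6.76 and 16.8 TPM, then 2.19 and 3.98 TPM, and in XEN cells at 2.24 and 2.48 TPM, then 4.18 and 7.61 TPM, then 5.51 and 5.10 TPM. Its hypoxic libraries overlapped normoxia on day 7 in TSCs and in no other comparison.

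Bhlhe40 was the exception in TSCs. Its level there was 730 and 832 TPM in normoxia, 429 and 500 TPM on day 2 and 937 and 725 TPM on day 7, so that the libraries of day 2 were below all others. In ESCs this repressor stood at 12.4 and 12.6 TPM in normoxia, 33.1 and 97.7 TPM on day 2 and 100.4 and 27.95 TPM on day 7. In XEN cells it stood at 206 and 124 TPM in normoxia, 355 and 273 TPM on day 2 and 540 and 100.3 TPM on day 7. The ratio of mean TPM on day 2 was 5.23 in ESCs, 1.90 in XEN cells and 0.595 in TSCs. The replicates of day 7 in XEN cells differed 5.36-fold on the scale of log2(TPM + 0.5), and enclosed the normoxic values.

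Mettl7b was low in ESCs and had the largest day 2 ratio of the 9 genes in XEN cells. In ESCs it stood at 0.350 and 0.579 TPM in normoxia, 1.05 and 0.570 TPM on day 2 and 2.86 and 2.35 TPM on day 7, from 3, 7, 14, 8, 37 and 22 reads in that order. In TSCs it stood at 5.31 and 3.91 TPM, then 4.99 and 11.0 TPM, then 6.25 and 8.10 TPM. In XEN cells it stood at 2.16 and 1.87 TPM, then 9.99 and 14.7 TPM, then 12.5 and 13.1 TPM. The groups of day 2 overlapped normoxia in ESCs and TSCs, and neither hypoxic group did in XEN cells, where the ratio of mean TPM was 6.13 on day 2 and 6.36 on day 7.

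**Figure D2:**
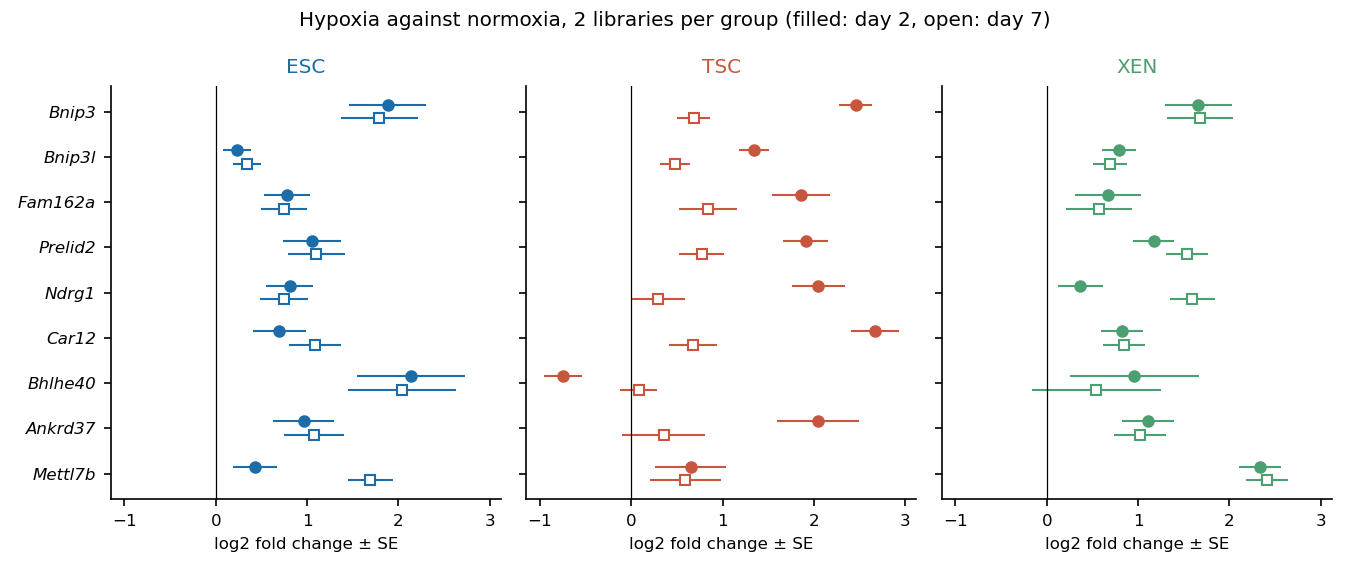
Fitted log2 fold change ± SE of each gene on day 2 (filled circles) and day 7 (open squares) of hypoxia against normoxia in ESCs, TSCs and XEN cells, with 2 libraries per group. In TSCs the medians of the 9 genes were 1.91 on day 2 and 0.59 on day 7, and Bhlhe40 on day 2 was the only negative value, at -0.75.

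A fit of log2(TPM + 0.5) with limma put the genes on a common scale of change, which understates the change of the genes with low TPM. On day 2 against normoxia the median log2 fold change of the 9 genes was 0.81 in ESCs (range 0.24 to 2.14), 0.96 in XEN cells (range 0.37 to 2.33) and 1.91 in TSCs (range -0.75 to 2.67), beside 0.01, -0.01 and 0.07 for all tested genes. On day 7 it was 1.09 in ESCs, 1.02 in XEN cells and 0.59 in TSCs, beside 0.02, -0.03 and -0.18. As a count, 7 of 9 genes in ESCs, 8 in XEN cells and 7 in TSCs were over 1.5-fold higher on day 2 with no overlap between the libraries, and 2.14%, 3.85% and 11.3% of all tested genes met the same criterion. The genes left out on day 2 were Bnip3l and Mettl7b in ESCs, Mettl7b and Bhlhe40 in TSCs and Ndrg1 in XEN cells. On day 7 the counts were 8 in ESCs, 7 in XEN cells and 5 in TSCs, beside 4.47%, 5.43% and 2.76% of all tested genes. Nothing is read from these counts, because the genes were chosen on this contrast. Bhlhe40 on day 2 in TSCs was the single member over 1.5-fold lower with no overlap.

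Since both comparisons share the normoxic libraries, the days are better compared directly. This comparison uses the same hypoxic libraries whose values were known when the genes were chosen, so for the 9 genes it too is a description, with no p, and the counts of calls support nothing about them. A gene was called where the adjusted p of limma (Benjamini-Hochberg over all genes tested in the cell type) was at or under 0.1 and the change over 1.5-fold. In TSCs, 7 of the 9 genes met this criterion with lower values on day 7 and 1 with higher values. In ESCs and XEN cells none met it.

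In TSCs the fitted log2 fold change of day 7 against day 2 was -1.99 (SE 0.26) for Car12, -1.77 (SE 0.18) for Bnip3 and -1.75 (SE 0.29) for Ndrg1. It was -1.69 (SE 0.45) for Ankrd37, -1.14 (SE 0.24) for Prelid2, -1.02 (SE 0.32) for Fam162a and -0.87 (SE 0.17) for Bnip3l. In each of these genes both libraries of day 7 were below both of day 2. Bhlhe40 had 0.83 (SE 0.21), with both libraries of day 7 above both of day 2. Mettl7b did not meet the criterion, at -0.06 (SE 0.39).

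The whole TSC profile also shifted between the days. Of all tested TSC genes, 16.2% were called, and 13.8% were called lower. Nothing is read from the 7 of 9 members called lower beside these shares, because the members were chosen with the day 2 values known. The median of all genes was -0.24, beside -1.14 for the 9 genes. The calls were 296 higher and 1723 lower (85.3% lower), and after scaling each library by its median ratio they were 738 higher and 968 lower (56.7% lower). On that scaling the median of the 9 genes was -0.90 and 6 were called, with Ankrd37 and Fam162a lost and Mettl7b changing sign to 0.20. Leaving out libraries moved the count more. Without replicate 1 of day 2 no member and 30 genes in all were called, and without replicate 2 of day 7 no member and no gene was. Without replicate 1 of day 7, only Bnip3 and Car12 among the members were called, with 284 genes in all. Without replicate 2 of day 2, 6 members were called. Without a normoxic library, 8 were called. The 8 called members kept their direction in each of these fits. Other markers moved within the same libraries. The lower sum of TSC markers on day 7, against which Tfap2c rose, and the uneven feeder transcripts were given above. The summed level of differentiated trophoblast markers, of which 6 of 8 were listed, was 8664 and 14437 TPM in normoxia, 8601 and 7269 TPM on day 2 and 14782 and 12907 TPM on day 7. Nearly all of it was Hand1, a trophoblast giant cell factor. Prl3d1, a giant cell hormone, stood at 0.388 and 1.17 TPM, then 0.496 and 0.830 TPM, then 3.22 and 6.53 TPM, while Tpbpa and Ctsq were not listed. Ascl2 and Gcm1 of the same list went the other way between the days. Ascl2 stood at 16.4 and 10.8 TPM on day 2 and 5.91 and 5.46 TPM on day 7. Gcm1 stood at 1.81 and 0.772 TPM, then 0.263 and 0.0706 TPM. For Syna and Prl2c2 the libraries of the days overlapped. The part of these markers in the differences was not tested.

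In ESCs, where 0.179% of all genes were called between day 7 and day 2, 0 of the 9 genes met the criterion. As said above, such a count supports nothing about the 9 genes. The largest change was that of Mettl7b, at 1.26 (SE 0.24), with both libraries of day 7 above both of day 2, and without replicate 1 of day 2 it was called. The other 8 genes lay between -0.10 and 0.39. In XEN cells, where 0.0367% of all genes were called, 0 of the 9 genes met the criterion. Ndrg1 had the largest change, at 1.23 (SE 0.25), and Prelid2 followed at 0.36 (SE 0.22), each with both libraries of day 7 above both of day 2. The highest mean of a member fell on day 2 for 8 of 9 genes in TSCs, for 4 in ESCs and for 2 in XEN cells. Whether the change from day 2 to day 7 differed between cell types was not tested, since the tables were scaled apart.

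**Figure D3:**
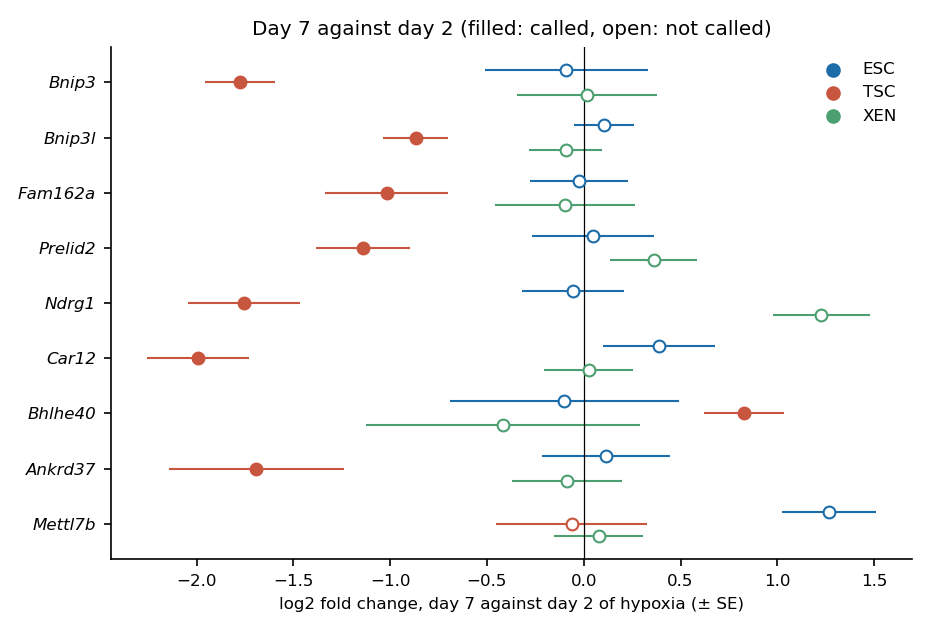
Fitted log2 fold change ± SE of the 9 genes on day 7 against day 2 of hypoxia, with filled points for genes called by limma and open points for the rest. All filled points are of TSCs, 7 below 0 and Bhlhe40 above 0 at 0.83, and the points of ESCs and XEN cells are open.

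Replicates of hypoxic ESCs differed in these genes. On day 2, replicate 2 was higher than replicate 1 for 8 of 9 genes and over 1.5-fold higher for 7, with a median difference of 0.72 on the log2(TPM + 0.5) scale, while 10.4% of all tested genes were over 1.5-fold higher in replicate 2 and the median of all genes was 0.08. On day 7, replicate 1 was the higher for 9 of 9 genes and over 1.5-fold higher for 5, against 3.95% of all tested genes, and the median difference of replicate 2 from replicate 1 was -0.61 beside -0.06 for all genes. Bhlhe40 differed most, 2.92-fold on day 2 and 3.55-fold on day 7, followed by Bnip3 with 2.55-fold and 1.95-fold. Mettl7b went against the others on day 2. Of 27 other hypoxia genes outside glycolysis that were tested in ESCs, 14 were over 1.5-fold higher in replicate 2 of day 2 and 12 in replicate 1 of day 7. In normoxic ESCs no member differed over 1.5-fold. For 7 of the 9 genes, all but Car12 and Mettl7b, the replicates differed on both days by more than day 7 differed from day 2.

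**Figure D4:**
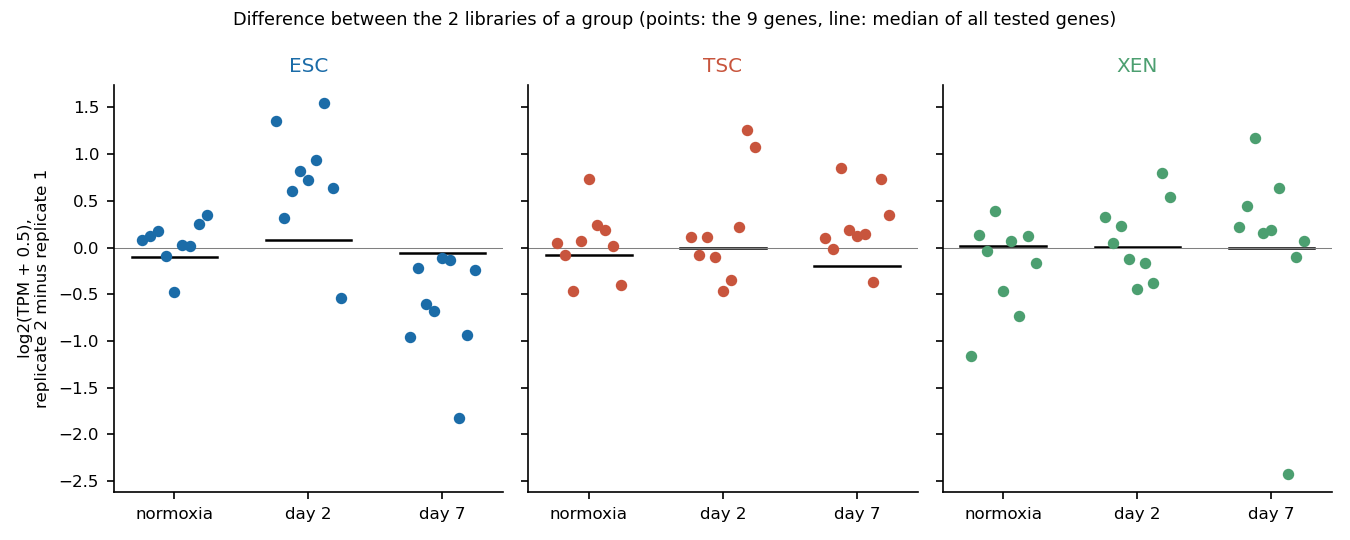
Difference between the libraries of a group, as log2(TPM + 0.5) of replicate 2 minus replicate 1, for each of the 9 genes (points) and as the median of all tested genes (line). In ESCs 8 of 9 points lie above 0 on day 2 and 9 of 9 below 0 on day 7.

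Profiles of the genes were compared over the 18 libraries, after centring log2(TPM + 0.5) on the mean of each cell type, as a description with no test. Points of a cell type share its table and its scaling. With the mean profile of the 9 genes, Bnip3 had a Pearson's r of 0.98, Prelid2 of 0.97, Ankrd37 of 0.92, Bnip3l of 0.90, Car12 of 0.90, Fam162a of 0.87, Ndrg1 of 0.83 and Mettl7b of 0.72. Each member is itself part of that mean. Bhlhe40 had 0.41, with 0.98 within the 6 ESC libraries, 0.40 within XEN cells and -0.86 within TSCs. Among 10081 genes tested in all 3 cell types, the 5 most alike outside the list were Mgarp (r = 0.93), which encodes a mitochondrial protein, the glucose transporter Slc2a1 (0.92), lactate dehydrogenase Ldha (0.91), phosphoglucomutase Pgm1 (0.91) and aldolase Aldoc (0.91). Of the 36 pairs among the 9 genes, the r within a cell type was above 0 in 36 pairs in ESCs, 35 in XEN cells and 28 in TSCs, with medians of 0.92, 0.71 and 0.87. All 8 negative pairs in TSCs involved Bhlhe40, down to -0.90 with Car12. The genes were chosen with their values in these libraries known, and pairs of other genes were not compared. Nothing about shared control is therefore read from the pairs.

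Levels of different genes can be compared only per length of transcript, and the deposited TPM were divided by the genomic length of each gene with its introns. TPM were therefore recomputed from the recovered reads with the summed length of the exons. On that scale, Fam162a was the highest member in normoxic ESCs (152 ± 16.7 exon-length TPM, SD, n = 2) and XEN cells (95.1 ± 2.00), and Bhlhe40 in TSCs (333 ± 36.2). In normoxic ESCs the order was Fam162a, Bnip3l (93.4), Bnip3 (34.2), Prelid2 (21.7), Ndrg1 (12.5), Bhlhe40 (5.63), Ankrd37 (4.43), Car12 (0.805) and Mettl7b (0.346), with no overlap between neighbours. In normoxic TSCs, Fam162a (147), Bnip3l (93.4), Ndrg1 (60.5), Bnip3 (41.9), Prelid2 (17.9), Ankrd37 (4.03), Mettl7b (3.23) and Car12 (1.82) followed Bhlhe40, again with no overlap. In XEN cells the order after Fam162a was Bhlhe40 (68.1), Bnip3l (62.9), Car12 (44.2), Bnip3 (38.5), Prelid2 (21.95), Ndrg1 (7.39), Ankrd37 (4.16) and Mettl7b (1.37), and there Bhlhe40 overlapped Bnip3l, and Bnip3 overlapped both Car12 and Prelid2. Exons of 6 of the 9 genes share bases with a gene on the opposite strand, among them Ankrd37 with Lrp2bp (349 of 1539 bases), Bnip3 with an antisense gene (504 of 2265) and Fam162a with Wdr5b (168 of 850). Whether reads were counted by strand is not given in the sources used here, so the reads of such pairs may be mixed.

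The surrounding pathways were followed in 6 lists of 117 genes in all, namely mitophagy receptors and adaptors other than Bnip3 and Bnip3l, the core of the autophagosome, the BCL2 family, carbonic anhydrases and pH transporters other than Car12, paralogs of the members, and other hypoxia genes outside glycolysis. With limma, 0 of 98 listed genes tested in ESCs were called on day 2 against normoxia (20 with an unadjusted p under 0.05, 0 by voom), as 0% of all genes were. On day 7 against normoxia 1 of 98 was called, higher, beside 0.758% of all genes. In XEN cells, 0 of 83 were called on day 2 (7 with an unadjusted p under 0.05, 0 by voom), where again 0% of all genes were, and 2 on day 7, both higher, beside 0.11%. The study used edgeR at the same thresholds and reported differentially expressed genes in each cell type on day 2. The 0 calls on day 2 are those of the limma and voom fits used here and do not mean that no gene changed. Between the days, 0 were called in ESCs (3 with an unadjusted p under 0.05, 0 by voom) and 2 in XEN cells, both higher. In TSCs, 1 of 96 was called higher on day 2, beside 0.2%, 1 lower on day 7, beside 0.385%, and 20 between the days, 2 higher and 18 lower, beside the 16.2% of all genes given above. Without replicate 1 of day 2 in ESCs, the count on day 2 was 20 instead of 0. Without replicate 1 of day 2 or replicate 2 of day 7 in TSCs, the count between the days was 0 instead of 20, and without replicate 1 of day 7 it was 5.

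The other mitophagy receptors and adaptors stood near 0. The median log2 fold change of this list on day 2 was 0.04 over 14 genes in ESCs, 0.15 over 13 in TSCs and -0.03 over 13 in XEN cells, and 0 were called against normoxia by limma on either day in any cell type, nor by voom, with an unadjusted p under 0.05 for 1 gene on each day in ESCs, 1 on day 2 in TSCs and 0 in XEN cells. Pink1, the kinase that marks damaged mitochondria, had the largest change on day 7 in ESCs, at 0.67 (SE 0.16), with 15.7 and 14.1 TPM against 9.48 and 8.87 TPM, and was not called. Between the days in TSCs, 2 of 13 were called, a share near the 16.2% of all genes, namely the autophagy adaptors Calcoco1, which fell by 1.05 (SE 0.28), and Nbr1, which fell by 0.79 (SE 0.21) and was not called by voom. The autophagosome core had medians of 0.06, 0.09 and -0.14 on day 2 over 24 genes in each cell type. Between the days in TSCs, 1 of the 24 was called, Gabarapl1, an LC3 family protein, which fell by 1.72 (SE 0.26) from 430 and 260 TPM on day 2 to 107 and 95.9 TPM on day 7. Its normoxic TSC libraries held 186 and 160 TPM. Of the BCL2 family, to which Bnip3 is related through its BH3-like motif, 3 of 14 were called between the days in TSCs, again near the 16.2% of all genes. Bak1, a pore-forming death effector, rose by 0.80 (SE 0.18), Bmf, a BH3-only protein, fell by 1.25 (SE 0.29) and Mcl1, a survival protein, fell by 0.65 (SE 0.19) and was not called by voom.

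Of the other carbonic anhydrases and pH transporters, 4 of 11 were called lower between the days in TSCs, where 13.8% of all genes were called lower. With voom 2 of the 11 were called, Car2 and Slc4a7. The 4 include the bicarbonate transporter Slc4a7, which went from 18.8 and 17.4 TPM to 4.46 and 3.49 TPM and fell by 2.06 on the log2 scale (SE 0.28). Car2, the cytosolic carbonic anhydrase, stood at 164 and 127 TPM in normoxia, 212 and 150 TPM on day 2 and 44.5 and 50.5 TPM on day 7, and fell by 1.90 (SE 0.24) between the days and by 1.60 (SE 0.24) from normoxia to day 7. Car11, a family member without enzyme activity, fell by 1.39 (SE 0.30) and was not called by voom. In ESCs and XEN cells none of this list was called by limma or voom in any comparison, with 2 and 4 genes under an unadjusted p of 0.05 over the 3 comparisons. Among the paralogs, Ndrg2 resembled Ndrg1 in TSCs. It stood at 6.42 and 9.92 TPM in normoxia, 38.4 and 31.2 TPM on day 2 and 8.07 and 5.96 TPM on day 7, was called higher on day 2 with a log2 fold change of 2.05 (SE 0.29) and fell by 2.24 (SE 0.29) thereafter. The call on day 2 was lost without a filter on TPM and with median-ratio scaling. It was also lost with a term for the replicate number and in a fit of the 4 libraries compared alone. Prelid3a, a relative of Prelid2, fell by 1.63 (SE 0.27) between the days from 3.64 and 3.50 TPM to 0.618 and 1.03 TPM, and in normoxia stood at 2.67 and 2.82 TPM.

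The other hypoxia genes had the highest median of the 6 lists against normoxia in each cell type and on each day. The median log2 fold change of this list against normoxia was 0.52 on day 2 and 0.55 on day 7 over 27 genes in ESCs, 0.77 and 0.17 over 26 in TSCs and 0.19 and 0.24 over 19 in XEN cells. Over 1.5-fold higher with no overlap were 11 and 12 genes in ESCs, 3 and 4 in XEN cells and 15 and 6 in TSCs, on day 2 and day 7. Of all tested genes, 2.14% and 4.47%, 3.85% and 5.43%, and 11.3% and 2.76% met that criterion in the same order. Ndufa4l2, which lowers the activity of respiratory complex I in hypoxia, was called in ESCs on day 7, with 141 and 63.1 TPM against 9.71 and 5.03 TPM and a log2 fold change of 3.66 (SE 0.68). In XEN cells, Adm, which encodes the peptide adrenomedullin, stood at 0.285 and 0.872 TPM in normoxia, 0.884 and 0.722 TPM on day 2 and 17.2 and 18.8 TPM on day 7. Egln3, one of the HIF prolyl hydroxylases, stood there at 11.8 and 14.4 TPM, then 21.2 and 23.1 TPM, then 80.6 and 110.2 TPM. Both rose by day 7, against normoxia (Adm 4.16, SE 0.30, Egln3 2.81, SE 0.20) and against day 2 (Adm 3.83, SE 0.30, Egln3 2.07, SE 0.20). Against day 2, Adm was not called by voom. In TSCs, 8 of 26 were called lower between the days and 1 was called higher, beside 13.8% of all genes called lower and 16.2% called in all. Stc2 fell by 2.07 (SE 0.25), Sap30 by 1.52 (SE 0.24) and Zfp395 by 1.08 (SE 0.25), while Plin2, a coat protein of lipid droplets, rose by 1.18 (SE 0.28).

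**Figure D5:**
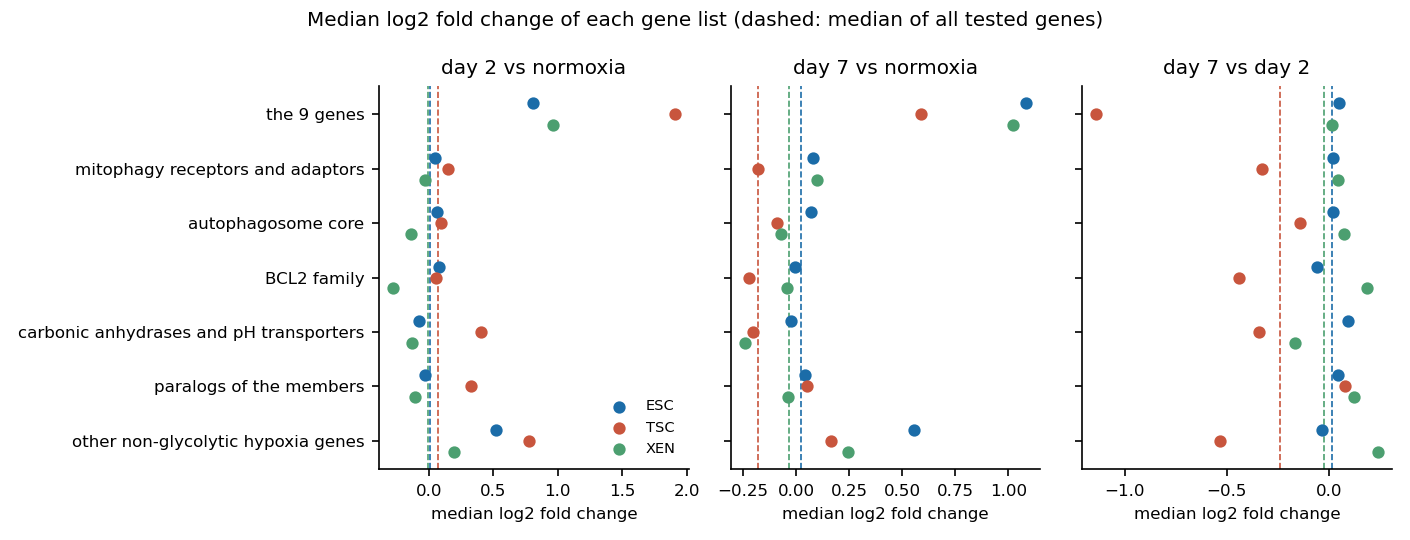
Median log2 fold change of the 9 genes and of each list in ESCs, TSCs and XEN cells for the 3 comparisons, with the median of all tested genes as a dashed line per cell type. In TSCs the 9 genes had a median of 1.91 on day 2 and of -1.14 between the days, and the other hypoxia genes had 0.77 and -0.53.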

How the data were processed

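Bulk RNA-seq of 18 libraries (3 cell types, 3 conditions, 2 biological replicates each) was analysed from the deposited tables, 1 per cell type. According to the submitters' processing notes and the methods of the study, libraries were made with KAPA RNA HyperPrep and sequenced as paired ends, and reads were trimmed with cutadapt 2.4, aligned to mm10 with STAR 2.7.5a and counted per gene, and StringTie 2.0.6 and edgeR 3.26.8 were also used. The authors kept protein-coding genes above a low count limit and deposited TPM. The deposited TPM were scaled by the span of a gene with introns, since dividing by the GENCODE span gave whole reads (within 0.05) for a median of 98.8% of values per library. Day 0 columns were taken as normoxia, and 0 columns were left unmapped.

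Fits used limma 3.58.1 in R 4.3.3 on log2(TPM + 0.5), with a mean-variance trend, over the 6 libraries of a cell type and genes above 0.4 TPM in at least 2 of them. Genes were called at an adjusted p at or under 0.1 and a change over 1.5-fold. Cell types were not tested against each other, as each table was scaled on its own. The scripts were tested on simulated data. Summaries used Python 3.11.15, numpy 2.4.6, pandas 2.3.3, scipy 1.17.1 and matplotlib 3.10.9.

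The 9 genes and all lists were chosen with earlier results of these data known, so the values of the 9 genes are a description in all 3 comparisons. Named genes are the 9 genes, the markers, the 5 genes with the most similar profile, and, per list and comparison, at most the 3 called genes with the largest change in each direction or, where none was called, the gene with the largest change. Alternatives were other pseudocounts, other filters, median-ratio scaling, exon-length TPM, voom on recovered reads, a replicate block, the 4 libraries compared alone, and each library left out. Nothing says that the replicates were separate cultures, so p-values measure only the spread between these samples. With 2 against 2 libraries an exact permutation test cannot go below 0.333, and none was used.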

Additional observations from a re-analysis of the deposited data

Results flagged for a closer look

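In 3 genes every library of 1 cell type moved one way and every library of another the opposite way under the same contrast. The differences were not tested. Bhlhe40 on day 2 against normoxia had a log2 fold change of 2.14 in ESCs, 0.96 in XEN cells and -0.75 in TSCs. Ndrg1 on day 7 against day 2 had -1.75 in TSCs and 1.23 in XEN cells. Prelid2 on day 7 against day 2 had -1.14 in TSCs and 0.36 in XEN cells.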

How the results depend on the processing

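Outside the fits that left out a library, 220 summary values stayed on their side of the criterion or within the spread and 23 moved, and of the values of single genes 705 stayed, 41 moved, 7 lost the call and 3 changed sign. The causes were not tested.

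The count of listed genes called on day 7 against normoxia in ESCs (1) was 0 without a filter, with median-ratio scaling and with the replicate block, 2 with voom, 4 with exon-length TPM and 8 in the 4 libraries alone. In TSCs on day 2 (1) it was 0 without a filter, with median-ratio scaling, with the block and in the 4 libraries alone, 2 above 1 TPM, 4 with voom and 3 with exon-length TPM. In TSCs on day 7 (1) it was 0 without a filter, with median-ratio scaling, with the block and with voom. In XEN cells it was 0 on day 7 (2) in the 4 libraries alone, and 1 between the days (2) without a filter and with voom. The median of the 9 genes on day 7 in ESCs (1.09) was 1.47 with voom and 1.40 with exon-length TPM, and 3 of them instead of 5 were over 1.5-fold higher without overlap on day 7 in TSCs with a pseudocount of 1.

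Between the days in TSCs, Fam162a was not called without a filter (-1.02), with median-ratio scaling (-0.74), with the block (-1.02), with voom (-0.90) or with exon-length TPM (-0.97), nor Ankrd37 with median-ratio scaling (-1.43) or voom (-1.72). Mettl7b turned to 0.20 with median-ratio scaling and 0.075 with voom. The r of Bhlhe40 was -0.86 in TSC libraries only.

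Whether the replicate numbers pair the samples is not known. The correlations of deviations between same-numbered libraries were of mixed sign, between -0.46 and 0.27, which cannot settle it. With the replicate block the calls over all genes on day 2 against normoxia, day 7 against normoxia and day 7 against day 2 were 0, 18 and 6 in ESCs (0, 93 and 22 without it), 0, 43 and 4 in XEN cells (0, 12 and 4) and 3, 13 and 1975 in TSCs (25, 48 and 2019).

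Leaving out each library in turn gave these ranges. For day 2 against normoxia the median of the 9 genes was 0.64 to 1.17 in ESCs, 1.81 to 1.94 in TSCs, 0.81 to 0.98 in XEN cells, the count of them over 1.5-fold higher without overlap was 5 to 7 in ESCs, 7 to 8 in TSCs, 8 to 9 in XEN cells, and the count of listed genes called was 0 to 20 in ESCs, 0 to 3 in TSCs, 0 to 1 in XEN cells. For day 7 against normoxia the median of the 9 genes was 0.76 to 1.44 in ESCs, 0.42 to 0.73 in TSCs, 0.96 to 1.46 in XEN cells, the count of them over 1.5-fold higher without overlap was 7 to 8 in ESCs, 3 to 6 in TSCs, 6 to 8 in XEN cells, and the count of listed genes called was 0 to 8 in ESCs, 0 to 2 in TSCs, 0 to 5 in XEN cells. For day 7 against day 2 the median of the 9 genes was -0.33 to 0.45 in ESCs, -1.45 to -1.05 in TSCs, -0.15 to 0.18 in XEN cells, the count of them called was 0 to 1 in ESCs, 0 to 8 in TSCs, 0 to 0 in XEN cells, and the count of listed genes called was 0 to 3 in ESCs, 0 to 23 in TSCs, 0 to 3 in XEN cells. In TSCs on day 7 against normoxia, Ankrd37 went from -0.013 to 0.72, Bhlhe40 went from -0.10 to 0.27, Ndrg1 went from -0.072 to 0.66. In XEN cells on day 7 against normoxia, Bhlhe40 went from -0.67 to 1.75, Fam162a went from -0.015 to 1.16. In ESCs on day 7 against day 2, Ankrd37 went from -0.35 to 0.58, Bhlhe40 went from -1.01 to 0.81, Bnip3 went from -0.77 to 0.58, Bnip3l went from -0.0498 to 0.26, Car12 went from -0.078 to 0.85, Fam162a went from -0.33 to 0.28, Ndrg1 went from -0.42 to 0.30, Prelid2 went from -0.36 to 0.45. In TSCs on day 7 against day 2, Mettl7b went from -0.60 to 0.47. In XEN cells on day 7 against day 2, Ankrd37 went from -0.48 to 0.31, Bhlhe40 went from -1.63 to 0.79, Bnip3 went from -0.15 to 0.18, Bnip3l went from -0.32 to 0.13, Car12 went from -0.29 to 0.34, Fam162a went from -0.68 to 0.49, Mettl7b went from -0.19 to 0.34.

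Few reads limit Mettl7b and Car12 in ESCs, and 2 libraries per group limit every comparison. Where a fit left 1 library in a group, that library was assumed to vary like the other groups.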
